A study of Homo sapiens with 12 samples.

Results

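The miR-23, miR-27, and miR-24 hairpins lie side by side in 2 human clusters, miR-23a/27a/24-2 on chromosome 19 (cluster a) and miR-23b/27b/24-1 on chromosome 9 (cluster b), and 9 of the 2588 mature miRNAs in the count table are described here as their products. The members were taken by name: the 5 abundant strands (hsa-miR-23a-3p, hsa-miR-23b-3p, hsa-miR-27a-3p, hsa-miR-27b-3p, and hsa-miR-24-3p) and 4 opposite strands (hsa-miR-27a-5p, hsa-miR-27b-5p, hsa-miR-24-2-5p, and hsa-miR-24-1-5p). Small RNA was sequenced from A549 cells, a human lung adenocarcinoma line with an epithelial morphology, in which TGF-β1 had been used to induce epithelial-to-mesenchymal transition (EMT), at 0, 24, and 96 h, with 2 libraries per time point. According to the study's methods, the cells stood in serum-free medium before TGF-β1 was added. No untreated culture of the later time points was analysed here, so that time in culture and TGF-β1 cannot be told apart. Every library had 2 sequencing runs, already summed in the counts, and nothing in the labels says that the libraries of a time point came from separate cultures, so the p-values measure only the spread between these libraries.

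A miRNA hairpin is cut by Drosha and Dicer into a short duplex, of which 1 strand, the guide, is kept by an Argonaute protein and pairs with target mRNAs through its seed, while the opposite strand is mostly degraded. Both clusters produce guides of the same families, with 1 hairpin of each family in each cluster, and miR-24-3p has the same sequence whether it comes from cluster a or cluster b. As background, miR-27 is known as a repressor of PPARG and of fat cell differentiation, miR-23 as a repressor of glutaminase under the control of MYC and, with its cluster b neighbors, of SMAD proteins of the TGF-β pathway, and miR-24 as a repressor of cell cycle genes and of the histone variant H2AX.

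The sequences are shown because the 2 clusters can be told apart only where their products differ. In each, the seed (bases 2 to 8 from the 5′ end) is in capitals, and all 9 members were matched by name to RefSeq's mature miRNAs (table on GRCh38.p14).
hsa-miR-23a-3p: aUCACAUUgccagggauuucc
hsa-miR-23b-3p: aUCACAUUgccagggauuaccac
hsa-miR-27a-3p: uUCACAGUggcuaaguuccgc
hsa-miR-27b-3p: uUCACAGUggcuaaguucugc
hsa-miR-24-3p: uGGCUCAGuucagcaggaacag
hsa-miR-27a-5p: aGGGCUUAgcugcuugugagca
hsa-miR-27b-5p: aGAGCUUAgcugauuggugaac
hsa-miR-24-2-5p: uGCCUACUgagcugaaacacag
hsa-miR-24-1-5p: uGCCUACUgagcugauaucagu

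With positions counted from 1 at the 5′ end and the cluster a base written first, miR-23a-3p and miR-23b-3p differ by U19A and by 2 further bases at the end of miR-23b-3p. The miR-27 guides differ by C19U alone, and 20 of their 21 positions are the same. The guides of a family therefore share a seed, and their separation in the counts rests on bases near the 3′ end, so that reads ending before position 19 cannot be assigned to either copy and the level of each guide is uncertain to that extent. The opposite strands are less alike: miR-27a-5p and miR-27b-5p share 14 of 22 positions and already differ in the seed (G3A), whereas miR-24-2-5p and miR-24-1-5p share 16 of 22 positions with their first difference at position 16. One further miRNA of the table, miR-23c, has the miR-23 seed, and miR-128-3p holds the miR-27 seed letters from position 1 to position 7.

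Matched exactly to GRCh37, the build named hg19 in the submitters' processing notes, the products of cluster a lie within 363 bases at chr19:13947103-13947465 on the minus strand, in an exon of 1 annotated transcript of MIR23AHG, the host gene of this cluster. Those of cluster b lie within 859 bases at chr9:97847509-97848367 on the plus strand, inside AOPEP, an aminopeptidase gene. There, miR-23b-3p, miR-27b-3p, and miR-27b-5p are intronic, whereas the products of mir-24-1 overlap an exon of 1 annotated AOPEP transcript. Of the guides, miR-23a-3p is at chr19:13947409-13947429, miR-27a-3p at chr19:13947261-13947281, miR-23b-3p at chr9:97847547-97847569, and miR-27b-3p at chr9:97847787-97847807. The sequence of miR-24-3p occurs at chr19:13947103-13947124 and at chr9:97848346-97848367, and its counts under the 2 hairpins differed by 27 to 134 reads, or 0.116 to 0.541%, so that they hold the same reads and do not tell the clusters apart.

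Library totals ranged from 2335185 to 5971197 counts on mature miRNAs and were highest at 96 h. A single miRNA, miR-21-5p, took 52.4 to 65.5% of these counts, also most at 96 h, and TMM factors, by which edgeR corrects for such differences in composition, were 1.17 and 1.36 at 0 h and 0.738 and 0.791 at 96 h. Levels below are TMM-normalized CPM, counts scaled to a common library size. Of the 6 epithelial marker miRNAs, the 5 of the miR-200 family were detected in every library and miR-205-5p had 0 to 3 reads. Their summed level was 119 to 120 CPM at 0 h and 235 to 243 CPM at 96 h, most of the difference being miR-200b-3p (45.1 and 43.0 against 147.5 and 119.9 CPM). In contrast, miR-141-3p was lower at 96 h, with 1.14 and 2.17 CPM against 3.30 and 3.88. The 6 blood markers, of which 2 were at 0 in all libraries, summed to 4.77 to 5.49 CPM at 0 h, 2.14 to 2.61 CPM at 24 h, and at most 1.36 CPM at 96 h, from 5 to 16 reads. The 3 of striated muscle summed to at most 1.83 CPM, from 1 to 5 reads. Those of endothelium (miR-126) summed to 404 to 515 CPM; the part of these lists in the results was not tested.

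The guides of these clusters are among the abundant miRNAs of A549 cells, and most of their reads were those of miR-23b-3p and miR-27b-3p of cluster b. The 9 members took 7.28 and 7.73% of the counts in the 0 h libraries, 6.76 and 6.69% in those of 24 h, and 5.11 and 4.97% in those of 96 h. On the TMM scale, their sum was 59448 ± 3953 CPM (SD, n = 2) at 0 h and 66037 ± 4507 CPM at 96 h, so the direction of the total depends on the scale, share or TMM. By mean level, miR-27b-3p was the third most abundant miRNA, followed within the clusters by miR-24-3p at rank 14, miR-27a-3p at rank 22, miR-23b-3p at rank 27, and miR-23a-3p at rank 52. The opposite strands followed at rank 96 for miR-27a-5p, 106 for miR-27b-5p, 132 for miR-24-2-5p, and 201 for miR-24-1-5p. In bulk RNA, fewer cells with a miRNA and less of it per cell cannot be told apart.

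**Figure D1:**
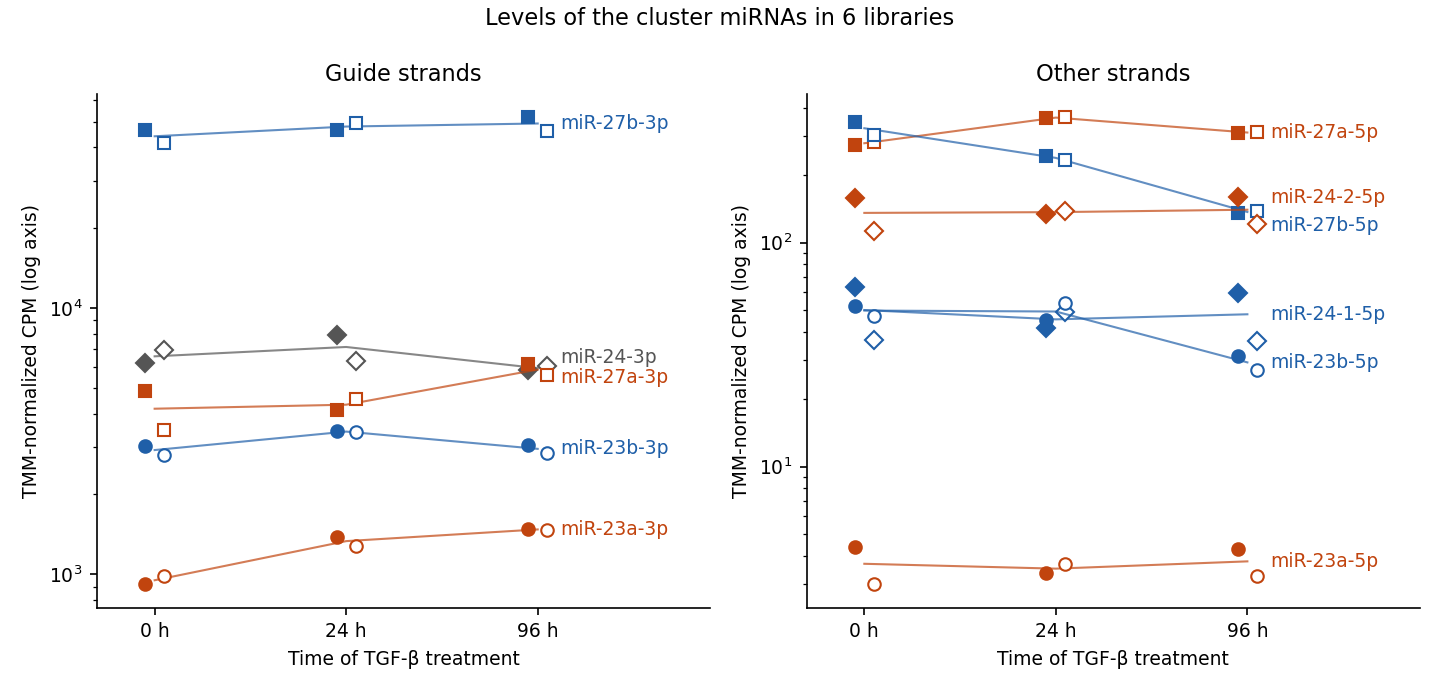
TMM-normalized CPM (log axis) of the guide strands (left) and the opposite strands (right) in each library at 0, 24, and 96 h; filled symbols are replicate 1, open symbols replicate 2, lines join the means, and cluster a is red, cluster b blue, and the shared miR-24-3p grey. The 2 libraries of miR-27b-5p at 96 h, at 135.5 and 138.6 CPM, lie under all libraries of 0 and 24 h, while miR-27b-3p stays between 41708 and 52059 CPM.

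Among the guides, miR-23a-3p of cluster a was at 916.5 and 984.4 CPM at 0 h, 1383 and 1282 CPM at 24 h, and 1479 and 1469 CPM at 96 h. Its 3 time points do not overlap, and each later one is higher on this scale. At 96 h the log2-fold change against 0 h was 0.63 with a standard error (SE) of 0.13 (adjusted p = 0.0039 after Benjamini-Hochberg correction of edgeR's quasi-likelihood test), which did not reach the fold change of 2 required for a call. At 24 h it was 0.49 (SE 0.13, adjusted p = 0.0538 by the same edgeR test). With libraries scaled to total counts instead of TMM, the change at 96 h was -0.10.

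The cluster b copy, miR-23b-3p, was at 3038 and 2816 CPM at 0 h, 3444 and 3422 CPM at 24 h, and 3058 and 2857 CPM at 96 h. Both libraries of 24 h lie above those of the other time points, and 96 h overlaps with 0 h. The log2-fold change at 96 h against 0 h was 0.02 (SE 0.13, adjusted p = 0.9275, edgeR), and -0.71 with total counts.

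For miR-27a-3p, the other guide of cluster a, the levels were 4880 and 3487 CPM at 0 h, 4121 and 4542 CPM at 24 h, and 6143 and 5592 CPM at 96 h. The libraries of 96 h are the highest, and those of 24 h fall between the widely spaced libraries of 0 h. Its log2-fold change at 96 h was 0.49 (SE 0.17, adjusted p = 0.0430, edgeR), again below the fold change required for a call. Without 0 h replicate 1 it was 0.79, and without 0 h replicate 2, which leaves 0 and 96 h libraries whose second run has the same date, it was 0.27 (adjusted p = 0.1585, edgeR). Without any other single library the adjusted p in edgeR was also above 0.05, up to 0.1831, and with total counts the change was -0.22.

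The most abundant member, miR-27b-3p, was at 46337 and 41708 CPM at 0 h, 46364 and 49412 CPM at 24 h, and 52059 and 46267 CPM at 96 h, and held the third place in every library. The libraries of 96 h overlap with those of 0 h, and the log2-fold change was 0.16 (SE 0.15, adjusted p = 0.4143, edgeR) and -0.57 with total counts. Over the miR-27 guides together, 48206 ± 4258 CPM at 0 h compare with 55030 ± 4485 CPM at 96 h (SD, n = 2). For the miR-23 guides the sums were 3877 ± 109 CPM at 0 h, 4766 ± 87.6 CPM at 24 h, and 4432 ± 149 CPM at 96 h.

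The guide made by both clusters, miR-24-3p, was at 6232 and 6924 CPM at 0 h, 7932 and 6331 CPM at 24 h, and 5822 and 6058 CPM at 96 h. Both libraries of 96 h are lower than all others, though the log2-fold change of -0.15 against 0 h did not pass the test (SE 0.15, adjusted p = 0.4496, edgeR). With total counts it was -0.88 (SE 0.17, adjusted p = 0.0027, edgeR), and with total counts without miR-21-5p it was -0.50 (adjusted p = 0.0224, edgeR). At 24 h the libraries overlap with those of 0 h.

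The opposite strands gave the one call among the members, at 96 h against 0 h, where 25.9% of all 491 tested miRNAs were called. In cluster b, miR-27b-5p was at 344.3 and 303.5 CPM at 0 h, 244.5 and 233.1 CPM at 24 h, and 135.5 and 138.6 CPM at 96 h, from 511 to 1017 reads per library. No time point overlaps with another, and each later one is lower. It fell by 1.24 on the log2 scale at 96 h (SE 0.15, adjusted p = 0.0002, edgeR), 2.36-fold, and this call held with each library left out in turn, with log2-fold changes from -1.32 to -1.11. At 24 h the log2-fold change was -0.44 (SE 0.15, adjusted p = 0.0918, edgeR), and between 24 and 96 h it was -0.80 (SE 0.15, adjusted p = 0.00877, edgeR), with adjusted p-values of 0.0728 to 0.1632 without any one library of 24 or 96 h.

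Its cluster a counterpart, miR-27a-5p, was at 273.3 and 282.0 CPM at 0 h, 358.8 and 364.0 CPM at 24 h, and 308.8 and 311.1 CPM at 96 h. Here the libraries of 24 h are the highest, and both later time points lie above 0 h. The log2-fold changes were 0.38 at 24 h (SE 0.14, adjusted p = 0.1097, edgeR) and 0.16 at 96 h (SE 0.14, adjusted p = 0.3694, edgeR), the latter -0.57 with total counts.

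The opposite strands of miR-24 overlapped between all time points, with the libraries of 0 h and those of 96 h farther apart than the means of any pair of time points. From cluster a, miR-24-2-5p was at 159.0 and 112.5 CPM at 0 h, 134.7 and 138.9 CPM at 24 h, and 159.5 and 121.0 CPM at 96 h. From cluster b, miR-24-1-5p was at 63.4 and 36.7 CPM at 0 h, 41.7 and 49.3 CPM at 24 h, and 59.4 and 36.3 CPM at 96 h, from 112 to 262 reads. For both, replicate 1 is the higher library at 0 and 96 h and the lower one at 24 h. Their log2-fold changes at 96 h were 0.05 (SE 0.21) and -0.05 (SE 0.30), with adjusted p = 0.8594 and 0.8999 (edgeR), and their signs changed with the normalization.

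Over all 9 members, 1 passed the thresholds at 96 h against 0 h, against 127 of the 491 tested miRNAs (25.9%), or 65 (13.2%) in the lower direction. Without the fold threshold, 3 of 9 had an adjusted p under 0.05 at 96 h (miR-23a-3p, miR-27a-3p, and miR-27b-5p), against 44% of all tested. With total counts, where the median of all tested miRNAs was -0.83, miR-23a-3p and miR-27a-3p did not pass (adjusted p = 0.5951 and 0.1603, edgeR). All other members then had an adjusted p under 0.05 and were lower. Relative to that median, miR-27b-5p was at -1.13, and the rest of these lay between -0.05 (miR-24-3p) and 0.26 (miR-27b-3p). The share of all tested miRNAs with an adjusted p under 0.05 under this scaling is not given here. At 24 h edgeR called 0 of 9, against 3.46% of all tested, with 3 members at an unadjusted p under 0.05 against 28.3% of all tested, and DESeq2 and limma also called 0. Between 24 and 96 h edgeR called 0 of 9, against 5.91%, with 2 at an unadjusted p under 0.05 against 31%, and DESeq2 called 0. No count is given here for limma, in which 96 h is a single library. Without the fold threshold 1 of 9 passed in edgeR, miR-27b-5p, against 12.6%. The libraries did not overlap for 5 of 9 members at 24 h against 0 h, beside 57.8% of all tested, and for 5 of 9 at 96 h against 0 h, beside 71.7%. The medians of the members' log2-fold changes were 0.12, 0.05, and 0.04 at 24 h against 0 h, 96 h against 0 h, and 96 h against 24 h, where those of all tested miRNAs were -0.0040, -0.10, and -0.05. Both comparisons with 0 h share the same 0 h libraries.

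**Figure D2:**
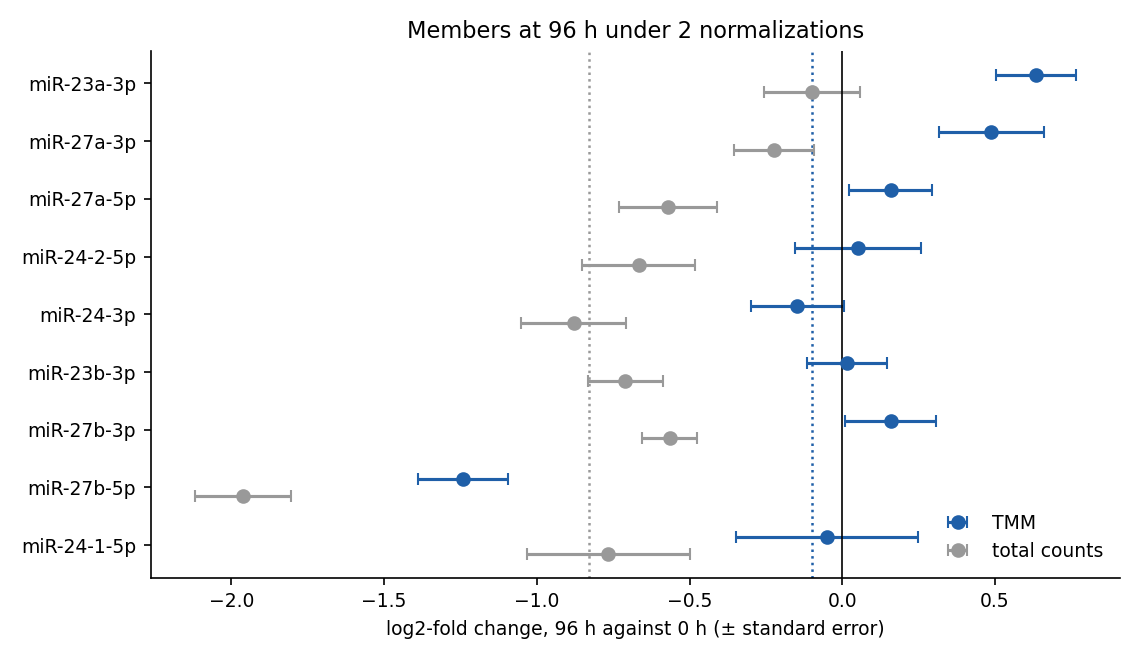
Fitted log2-fold change of each member at 96 h against 0 h with its standard error, under TMM (blue) and under total counts (grey); dotted lines mark the median of all 491 tested miRNAs under each. Under total counts all 9 members are below 0, so the directions of all but miR-24-3p, miR-27b-5p, and miR-24-1-5p flip, while their distances from the median hardly move.

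Total counts moved the median of all tested miRNAs at 96 h to -0.83, from -0.10 under TMM. Relative to that median, miR-27b-5p was at -1.14 under TMM and -1.13 under total counts, miR-23a-3p at 0.73 and 0.73, miR-27a-3p at 0.59 and 0.61, miR-27b-3p at 0.26 and 0.26, miR-23b-3p at 0.11 and 0.12, and miR-24-3p at -0.05 and -0.05. Ratios between members of the same library need no such scaling, and they are given next.

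Within a library, cluster a gave fewer miR-23 and miR-27 guides than cluster b at every time point. Its share of the summed miR-23 and miR-27 guide counts was 10.5 and 9.13% in the 0 h libraries, 9.95 and 9.93% in those of 24 h, and 12.1 and 12.6% in those of 96 h, so that the 96 h libraries are the highest. Reads of miR-23a-3p per read of miR-23b-3p were 0.302 and 0.350 before treatment, 0.402 and 0.375 after 24 h, and 0.484 and 0.514 after 96 h. The 3 time points do not overlap, and the 95% exact binomial (Clopper-Pearson) intervals, which cover counting error only, run from 0.288 to 0.316 and from 0.336 to 0.364 for the libraries of 0 h and from 0.470 to 0.498 and from 0.498 to 0.531 for those of 96 h. The mean ratio was 0.326 ± 0.0339 at 0 h and 0.499 ± 0.0215 at 96 h (SD, n = 2), a 1.54-fold difference.

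For miR-27a-3p per read of miR-27b-3p the values were 0.105 and 0.0836 before treatment, 0.0889 and 0.0919 after 24 h, and 0.118 and 0.121 after 96 h. The libraries of 96 h stand above all others, and those of 0 h lie farther apart than those of 24 or 96 h. The opposite strands of miR-27 had the widest shift, with miR-27a-5p per read of miR-27b-5p at 0.794 and 0.929 before treatment, 1.47 and 1.56 after 24 h, and 2.28 and 2.24 after 96 h. At 0 h cluster b thus gave more 5p reads of miR-27 than cluster a in both libraries, and at 24 and 96 h cluster a gave more. For miR-24-2-5p per read of miR-24-1-5p the libraries overlap, at 2.51 and 3.07, 3.23 and 2.82, and 2.68 and 3.33 at 0, 24, and 96 h.

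**Figure D3:**
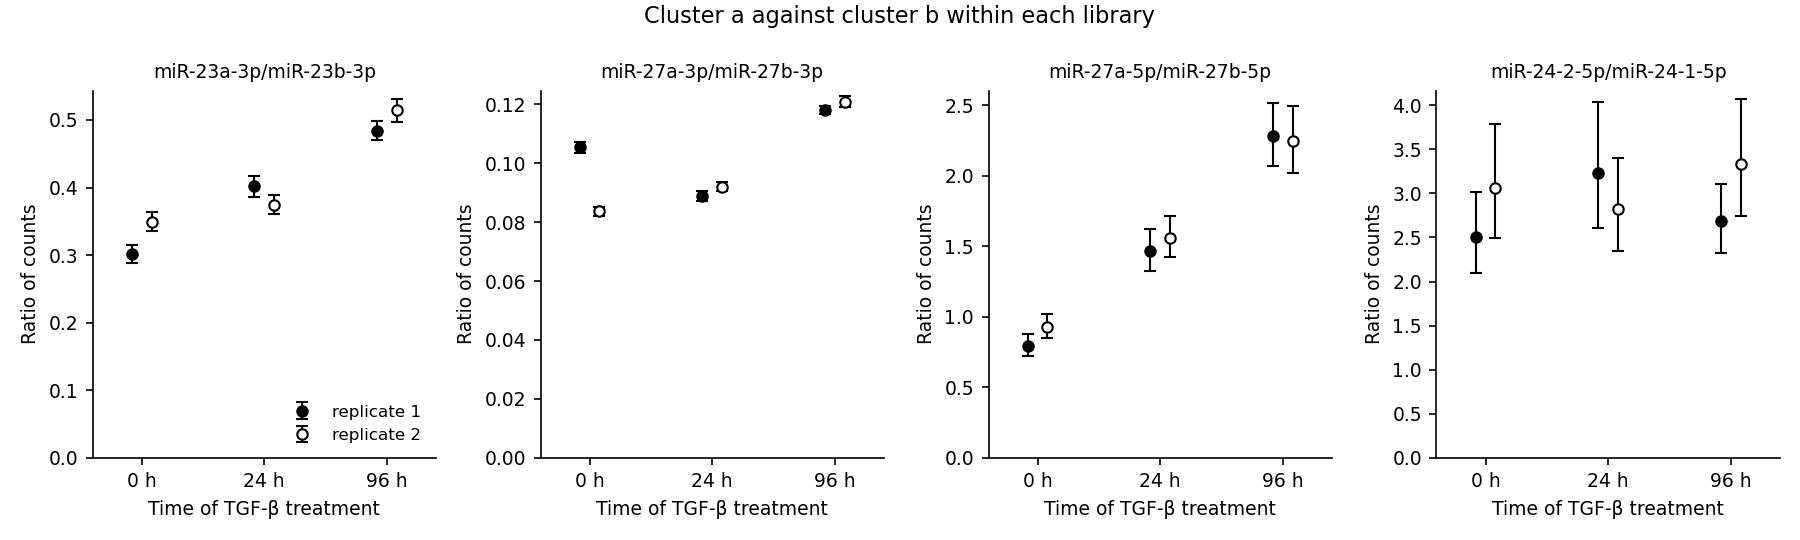
Reads of the cluster a product per read of the cluster b product in each library (filled circles, replicate 1; open circles, replicate 2), with 95% Clopper-Pearson intervals from the counts. The miR-23 guides move from 0.302 and 0.350 at 0 h to 0.484 and 0.514 at 96 h and the miR-27 5p strands from 0.794 and 0.929 to 2.28 and 2.24, whereas the miR-24 5p strands overlap at all time points.

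A permutation of 2 against 2 libraries cannot give an exact two-sided p under 0.333, and 13 of the 18 such tests, over 6 ratios and 3 comparisons, had this value. A test added after the values had been seen, edgeR's diffSpliceDGE, was therefore fitted to all 41 pairs of copies in the table, with Benjamini-Hochberg adjustment over the pairs. At 96 h against 0 h it passed the ratios of the miR-27 5p strands (fitted log2 change 1.40, adjusted p = 0.0003) and of the miR-23 guides (0.62, adjusted p = 0.0248), among 5 pairs in all (12.2%). With the replicate number as a block the miR-23 guide ratio did not pass. Over the alternatives other than left-out libraries its adjusted p in edgeR reached 0.1289. The ratio of the miR-27 guides (0.33, adjusted p = 0.2506) and that of the miR-24 5p strands (0.10, adjusted p = 0.9978) did not pass in edgeR, though the former had a change of 0.51 and an adjusted p of 0.0493 without 0 h replicate 1. For the miR-23 guides the adjusted p by edgeR was between 0.0264 and 0.2019 as each library was left out, above 0.05 without either library of 24 h or of 96 h, and the log2 change was between 0.51 and 0.72; the median absolute change of all 41 pairs was 0.50.

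At 24 h against 0 h, the ratio of the miR-27 5p strands was the 1 pair of 41 (2.44%) with an adjusted p under 0.05 in edgeR (fitted log2 change 0.82, adjusted p = 0.0456). Without any one of 0 h replicate 1, the 24 h libraries, and the 96 h libraries, its adjusted p in edgeR was above 0.05, up to 0.6175, with log2 changes of 0.70 to 0.87. Between 24 and 96 h, 1 pair of other miRNAs passed (2.44%), and the miR-27 5p ratio changed by 0.58 (adjusted p = 0.1284, edgeR). The call for the miR-27 5p ratio at 96 h held with each library left out (adjusted p from 0.0015 to 0.0219, edgeR).

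The strands of each hairpin were then compared. For miR-27b, 5p reads per 100 reads of 3p were 0.743 and 0.728 before treatment, 0.527 and 0.472 after 24 h, and 0.260 and 0.300 after 96 h. No time point overlaps with another, and each later one is lower. The means were 0.735 ± 0.0110 at 0 h, 0.500 ± 0.0393 at 24 h, and 0.280 ± 0.0278 at 96 h (SD, n = 2).

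In miR-27a, 5p reads per 100 of 3p were 5.60 and 8.09 before treatment, 8.71 and 8.01 after 24 h, and 5.03 and 5.56 after 96 h. The libraries of 96 h lie under all the others, but 0 h replicate 1 is close to them, and 24 h overlaps with 0 h replicate 2. In every library the 5p strand was more frequent relative to its guide in miR-27a than in miR-27b.

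**Figure D4:**
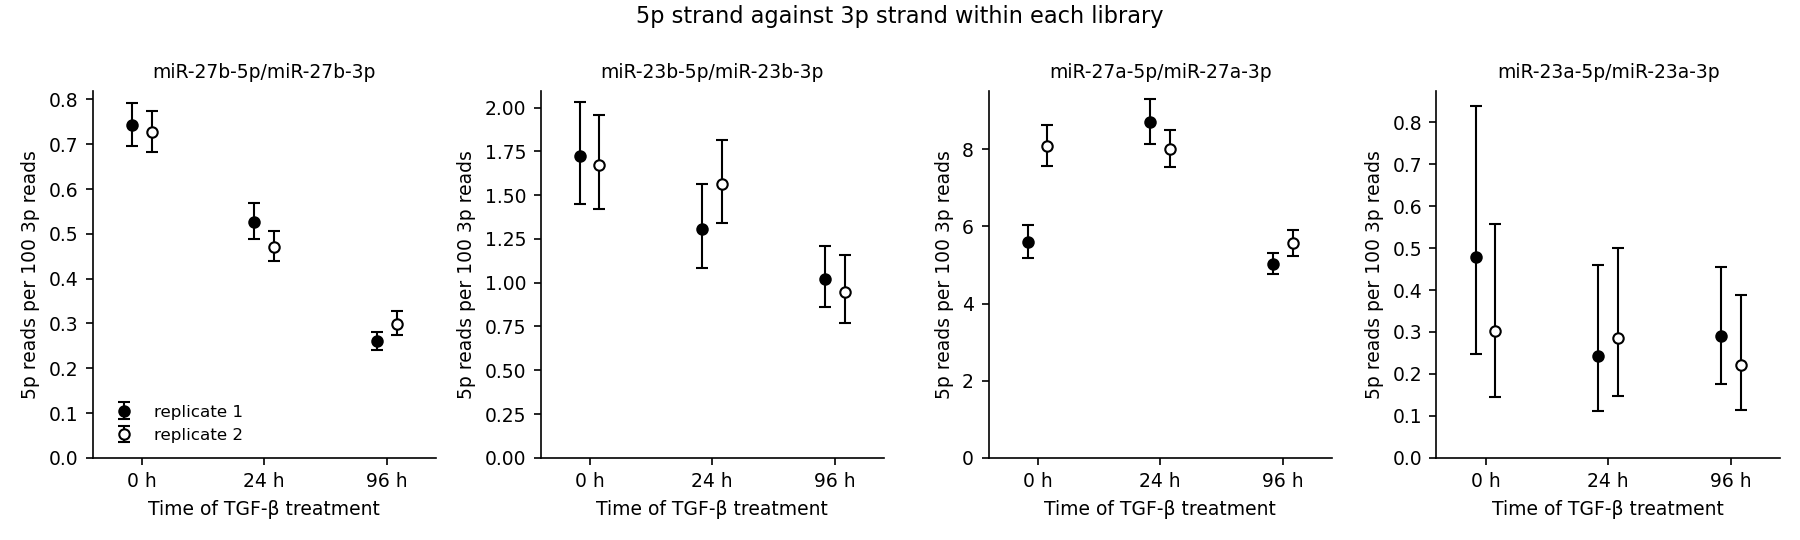
5p reads per 100 reads of the 3p strand of the same hairpin in each library (filled circles, replicate 1; open circles, replicate 2), with 95% Clopper-Pearson intervals from the counts. miR-27b moves from 0.743 and 0.728 at 0 h to 0.260 and 0.300 at 96 h and miR-23b from 1.72 and 1.67 to 1.02 and 0.949, whereas the 0 h libraries of miR-27a, at 5.60 and 8.09, are far apart.

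Over the 108 hairpins with both strands tested, the same added test passed 22 at 96 h against 0 h (20.4%), with 12 toward the 5p and the rest toward the 3p strand. miR-27b had the smallest p of all (fitted log2 change -1.40, adjusted p = 7.1e-05, edgeR) and ranked sixth by size. With each library left out its change was between -1.50 and -1.30 and its adjusted p at most 0.0150 (edgeR). At 24 h against 0 h, 0 of the 108 hairpins passed in edgeR (0%), with 11 at an unadjusted p under 0.05, and miR-27b had a change of -0.56 (adjusted p = 0.1328, edgeR). Between 24 and 96 h miR-27b was the 1 hairpin to pass (0.926%), with a change of -0.84 (adjusted p = 0.0126, edgeR), which was above 0.05, up to 0.3114, without any one library of 24 or 96 h. The strand ratio of miR-27a changed by -0.33 at 96 h against 0 h (adjusted p = 0.2178, edgeR) and by -0.61 (adjusted p = 0.0233, edgeR) without 0 h replicate 1. Between 24 and 96 h it changed by -0.66 (unadjusted p = 0.0035, adjusted p = 0.0746, edgeR), the fifth smallest p of the 108 hairpins, in the same direction as miR-27b.

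**Figure D5:**
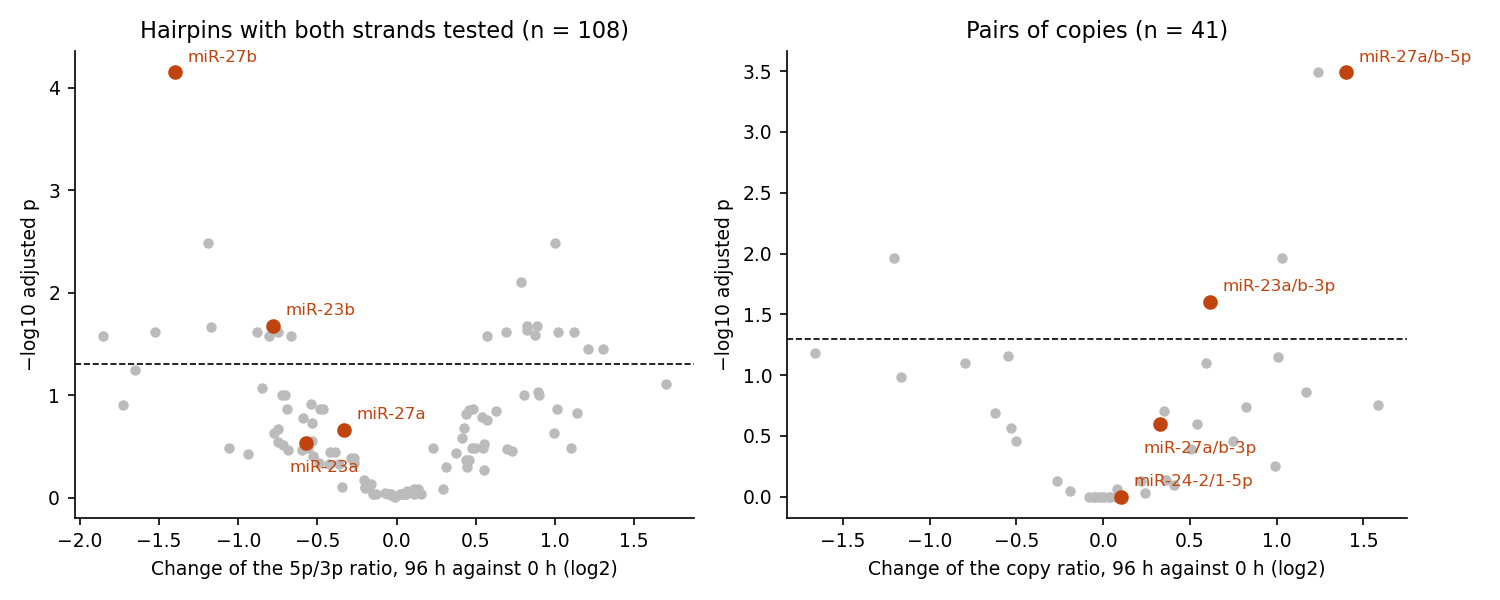
Change at 96 h against 0 h (log2, x axis) and −log10 of the adjusted p (y axis) of the 5p/3p ratio of 108 hairpins (left) and of the ratio of 41 pairs of copies (right); the dashed line marks an adjusted p of 0.05, and red points are the clusters described here. miR-27b, at -1.40, is the highest point on the left, and the miR-27 5p ratio, at 1.40, is at the top right on the right.

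The other products of these loci were read at lower levels. miR-23b-5p, the opposite strand of miR-23b, was at 52.4 and 47.1 CPM at 0 h, 45.0 and 53.5 CPM at 24 h, and 31.3 and 27.1 CPM at 96 h, from 100 to 175 reads. Both libraries of 96 h lie under all others. With total counts the log2-fold change against 0 h was -1.49 (adjusted p = 0.00039, edgeR), past the thresholds of a call. So was the -1.12 (adjusted p = 0.0021, edgeR) with total counts without miR-21-5p. Relative to the median of all tested miRNAs it was -0.66 under both TMM and total counts. With TMM the log2-fold change was -0.76 against 0 h (SE 0.20, adjusted p = 0.0122, edgeR), short of the fold change required for a call, and -0.75 against 24 h (SE 0.20, adjusted p = 0.0361, edgeR). Without either library of 96 h the adjusted p against 0 h was above 0.05, at 0.0535 and 0.1121 (edgeR). Per 100 reads of miR-23b-3p it had 1.72 and 1.67 reads before treatment, 1.31 and 1.56 after 24 h, and 1.02 and 0.949 after 96 h, a fitted log2 change of -0.78 at 96 h against 0 h in the test over all hairpins (adjusted p = 0.0211, edgeR, and 0.0763 and 0.1313 without either library of 96 h).

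Relative to their guides, the 5p strands of miR-23b and miR-27b in cluster b, and also those of miR-23a and miR-27a in cluster a, were thus lower in both libraries of 96 h than in those of 0 h. The added test passed those of miR-23b and miR-27b. In cluster b, miR-24-1-5p per 100 reads of miR-24-3p overlapped between the time points, at 1.02 and 0.530 at 0 h and 1.02 and 0.600 at 96 h. In cluster a, miR-23a-5p had 9 to 19 reads per library and, per 100 reads of miR-23a-3p, 0.480 and 0.303 reads before treatment, 0.242 and 0.286 after 24 h, and 0.291 and 0.222 after 96 h. The difference did not pass the added test (fitted log2 change -0.57 at 96 h against 0 h, adjusted p = 0.2905, edgeR). Whether the strand ratios changed differently in the 2 clusters was not tested. From the strand opposite to mir-24-1, miR-3074-5p had 0 to 4 reads and miR-3074-3p 0 or 1, where a count of 0 allows up to 3 counts, or 0.502 to 1.28 CPM of the library total. Of the miRNAs with a related seed, miR-23c had 10 to 19 reads per library, and miR-128-3p was at 889.8 and 544.3 CPM at 0 h, 482.0 and 634.1 CPM at 24 h, and 715.0 and 624.1 CPM at 96 h, overlapping throughout.

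The runs of a library could be separated in 5 libraries, and the ratios of the members were computed for each run. The absolute log2 difference between the runs of a library was 0.02 to 0.13 for the miR-23 guides, 0.01 to 0.04 for the miR-27 guides, 0.01 to 0.33 for the miR-27 5p strands, 0.0039 to 0.14 for the strands of miR-27a, and 0.01 to 0.15 for those of miR-27b. For the 5p strands of miR-24 it was 0.12 to 0.54 for miR-24-2-5p against miR-24-1-5p, 0.02 to 0.21 for miR-24-2-5p against miR-24-3p, and 0.09 to 0.34 for miR-24-1-5p against miR-24-3p. For the first of these, the widest gap between runs was larger than its fitted change of 0.10 at 96 h against 0 h. The first run of every library was dated 21 April. The second run of 0 h replicate 1 and of both 96 h libraries was dated 8 May. That of 0 h replicate 2 and both 24 h libraries was dated 4 May, so that the second runs of 24 and 96 h do not share a date. Each date of a second run has only 1 library of 0 h. In the comparisons within such a date, as wherever a library is left out, the lone library is therefore assumed to vary like those of the other time points. Between the 96 h libraries and the single 0 h library of 8 May, the log2-fold change at 96 h against 0 h was -1.32 for miR-27b-5p and 0.69 for miR-23a-3p, and the fitted change of the miR-27b strand ratio was -1.42. Between the 24 h libraries and the single 0 h library of 4 May, the fit gave -0.31 for miR-27b-5p (adjusted p = 0.2315, edgeR) and 0.70 for the miR-27 5p ratio (adjusted p = 0.1080, edgeR).

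The guides of a cluster did not follow each other closely over the 6 libraries. Pearson's r of log2 CPM was 0.56 between miR-23a-3p and miR-27a-3p of cluster a and 0.47 between miR-23b-3p and miR-27b-3p of cluster b, against 0.78 between miR-27a-3p and miR-27b-3p and 0.30 between miR-23a-3p and miR-23b-3p of different clusters. Between miR-27b-5p and its own guide miR-27b-3p it was -0.59. For miR-24-3p, which both clusters make, r was -0.105 with miR-23a-3p and -0.758 with miR-27a-3p, and 0.42 with miR-23b-3p and -0.503 with miR-27b-3p. These values describe 6 libraries at 3 time points that share depth and normalization, and carry no test. Among 312 other tested miRNAs whose mean reached 10 CPM, the patterns most like miR-23a-3p were those of miR-31-3p (r = 0.99), miR-136-3p (0.98), and miR-181a-3p (0.98). For miR-27a-3p they were miR-16-2-3p (0.98), miR-493-3p (0.97), and miR-30d-5p (0.97), and for miR-27b-3p miR-4473 (0.98), miR-96-5p (0.98), and let-7i-5p (0.97). For miR-23b-3p they were miR-5701 (0.96), miR-1260a (0.94), and miR-1260b (0.92), and for miR-24-3p miR-130a-3p (0.97), miR-151b (0.95), and miR-28-5p (0.95).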

How the data were processed

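The authors sequenced Illumina small RNA libraries of A549 cells and counted reads with miRDeep2; they deposited counts, whole and not normalized, per mature miRNA and precursor, with both runs of a library summed. They also deposited a normalized signal, in which each run was scaled to the same total and both were added. There, 1 column repeats another, was not used, and leaves 96 h replicate 2 without a normalized value. The submitters' processing notes name hg19 and FastQC; mapping settings are not given in the sources used here.

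For each of 2588 mature miRNAs the precursor entry with the highest total was kept. All counts were fitted in R 4.3.3 with edgeR 4.0.16: TMM, filterByExpr with a minimum count of 10 (491 miRNAs with 99.96% of the reads), time point as the only term, and the quasi-likelihood F-test with Benjamini-Hochberg adjustment over all 491. A call required a log2-fold change beyond 1 in either direction with its adjusted p under 0.05; the SE is the absolute log2-fold change over the square root of F. Ratios within libraries were compared by exact two-sided permutation and by diffSpliceDGE over all pairs, added after the data had been seen. On simulated data for 96 h against 0 h, the main test recovered 96.7% of 200 miRNAs changed by a log2 of 2, among 472 tested, with 1.41% false calls. Smaller changes were not simulated for this test, so its recovery at the size of the members' changes is not known. The added test recovered 68.5% of 20 hairpins changed by a log2 of 1.2, among 103, with 6.81% false calls. Runs were separated from the normalized signal: 96.8 to 99.7% of the entries with counts came out as whole reads of both runs within 0.0258 to 0.0466 reads. Of the 45 values of the members 7 did not, miR-27b-3p in all 5 libraries and 2 others, and were rounded; they lay at most 0.443 reads from a whole number.

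The alternatives were DESeq2's size factors, total counts with and without miR-21-5p, DESeq2 1.42.0, limma 3.58.1 on log2(normalized signal + 1), no filter, a fit of only the libraries compared, calls without a minimum fold change, a filter at a mean of 10 CPM, the replicate number as a block, the date of the second run as a term, sums over or all of the precursor entries, and leaving out each library. The text names all members, the other products of the loci, miRNAs with their seeds, miR-128-3p, and the 3 miRNAs most alike each guide. The members and lists were chosen with earlier results of these data known. Sequences were matched for 2281 of the 2588 names; positions are exact matches in GRCh37 with GENCODE release 44 annotation. Ratios were computed with pandas 2.3.3, numpy 2.4.6, and scipy 1.17.1 and figures drawn with matplotlib 3.10.9, all in Python 3.11.15.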

Additional observations from a re-analysis of the deposited data

Results flagged for a closer look

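In 3 results, 24 and 96 h of treatment differed in a test of that difference with all libraries, and none of the 3 kept an adjusted p under 0.05 without any one library of 24 or 96 h. For miR-27b-5p the log2-fold change of 96 h against 24 h was -0.80 (adjusted p = 0.00877, edgeR's quasi-likelihood test), lower in 2 of 2 libraries, with 0.0728 to 0.1632 without any one of those libraries (edgeR). For miR-23b-5p it was -0.75 (adjusted p = 0.0361, edgeR), also lower in 2 of 2 libraries, with 0.1634 to 0.2373 without any one of them (edgeR). For the ratio of miR-27b-5p to miR-27b-3p the change was -0.84 (adjusted p = 0.0126, edgeR's diffSpliceDGE), with 0.0625 to 0.3114 without any one of them. All libraries of 24 h and of 96 h have second runs of different dates, while their first runs share a date. In the summed counts the second date cannot be told apart from the time points in this comparison other than through the 0 h libraries. With the date as a term the values were -0.98 (adjusted p = 0.0219), -0.91 (adjusted p = 0.1553), and -0.87 (adjusted p = 0.1698) by the same edgeR tests. Run by run, miR-27b had 0.526 and 0.530, and 0.4625 and 0.485, 5p reads per 100 of 3p in the 24 h libraries. In 96 h replicate 1 it had 0.263 and 0.253. The runs were not assigned to dates, those of 96 h replicate 2 could not be separated, and this was not tested.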

How the results depend on the processing

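miR-27b-5p was called at 96 h against 0 h under all alternatives run, with log2-fold changes from -2.02 to -1.11, and 0 members were called at 24 h under any. At 24 h miR-27b-5p was at -0.72 with total counts (adjusted p = 0.0191, edgeR), short of the fold change for a call. With total counts without miR-21-5p it was at -0.62 (adjusted p = 0.0211, edgeR). The medians of all tested miRNAs were -0.30 and -0.19 under these scalings. Relative to them miR-27b-5p was at -0.42 and -0.43, and under TMM at -0.44. Without a minimum fold change 3 members passed at 96 h against 0 h, beside 44% of all tested miRNAs, and 1 between 24 and 96 h, beside 12.6%. With total counts 1 member, miR-27b-5p, was also called between 24 and 96 h, at -1.24, where the median of all tested miRNAs was -0.49. Relative to the median it was at -0.75 under both total counts and TMM. The share of all tested miRNAs called in this setting is not given here. Left-out libraries kept the counts of called members at 0, 1, and 0. The sign of most other values at 96 h against 0 h differed between scalings or other settings. With total counts miR-23a-3p was at -0.10, miR-23b-3p at -0.71, miR-27a-3p at -0.22, miR-27b-3p at -0.57, miR-27a-5p at -0.57, and miR-24-2-5p at -0.67. With total counts without miR-21-5p, miR-23b-3p was at -0.34, miR-27b-3p at -0.19, miR-27a-5p at -0.20, and miR-24-2-5p at -0.30. With limma on the normalized signal, which is scaled to totals and lacks 96 h replicate 2, miR-23a-3p was at -0.082, miR-23b-3p at -0.67, miR-27a-3p at -0.18, miR-27b-3p at -0.51, miR-27a-5p at -0.56, and miR-24-2-5p at -0.47. With a mean of at least 10 CPM, miR-23b-3p was at -0.13 and miR-24-2-5p at -0.090, and with the date of the second run as a term at -0.039 and -0.18. The value of miR-24-1-5p turned to 0.032 with DESeq2's size factors, to 0.028 in the DESeq2 test, and to 0.0012 without a filter. For these changes of sign the cause was not tested.

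Leaving out 1 library at a time gave log2-fold changes at 96 h against 0 h from -0.030 to 0.11 for miR-23b-3p, from -0.17 to 0.36 for miR-24-2-5p, and from -0.42 to 0.43 for miR-24-1-5p, and fitted changes of the miR-24 5p ratio from -0.072 to 0.29, all with sign changes. In the normalized signal, without 96 h replicate 2, the strand ratio of miR-27b changed by -1.52 at 96 h against 0 h. The labels do not say whether the replicate numbers pair the libraries. Deviations of the replicate 1 libraries from their time point means correlated at -0.30 (0 and 24 h), 0.31 (0 and 96 h), and -0.18 (24 and 96 h). These values have both signs and cannot decide whether the libraries are paired. With the replicate block, the log2-fold change of miR-27b-5p at 96 h was -1.24, and the counts of called members were unchanged. The adjusted p of the miR-23 guide ratio at 96 h was then 0.1141 (edgeR). That of the miR-27 5p ratio at 24 h was 0.3439, and that of the miR-27b strand ratio between 24 and 96 h 0.0738 (edgeR). Over the alternatives other than left-out libraries, the adjusted p of the added edgeR test at 96 h against 0 h was 0.0001 to 0.0053 for the miR-27 5p ratio, at most 0.00105 for the miR-27b strand ratio, 0.0105 to 0.1289 for the miR-23 guide ratio, and 0.0076 to 0.1339 for the miR-23b strand ratio. Over all 3 comparisons, 106 of 681 log2-fold changes of members and related products under alternatives changed sign and 564 kept sign and call. miR-23a-5p and miR-3074 had few reads, and the effect of this on their values was not tested.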
